A study of Homo sapiens with 8 samples.

Results

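GM12878 is a lymphoblastoid cell line, made from human B cells transformed with Epstein-Barr virus. Its isoform landscape was described within the line, from its 3 libraries out of 8 in the series, and the other libraries come from the liver tumour line HepG2 and the leukaemia line K562. The 3 libraries were chosen by their titles, no comparison between lines was made, and no treatment is given in the labels. Total RNA was the starting material. Native RNA molecules were read directly on Oxford Nanopore instruments, so that a read ideally stands for 1 molecule. TALON, a program that sorts long reads into transcript models, gave a count of reads to each model. The libraries held 151720, 176118 and 70374 reads in replicates 1, 2 and 3, and replicate 3 was the shallowest. Of the 506946 models listed, 93896 had a read in GM12878, against 268821 with a read in any of the 8 libraries. The labels do not say that the libraries came from separate cultures, so the spread between them may be technical. The line is a transformed culture and does not stand for the B cells of the blood.

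A gene can give several mature RNAs, through the choice of start, splice sites and polyadenylation site, and these can differ in the protein they encode. TALON calls a read known when its chain of introns is that of an annotated transcript. An incomplete splice match (ISM) holds only a consecutive stretch of an annotated chain, and a suffix ISM holds the 3' stretch. Models new in the catalogue (NIC) join annotated splice sites in an unannotated way, and models not in the catalogue (NNC) use at least 1 unannotated site. Genomic models, most of them with a single exon, run into introns or show no annotated junction. Direct RNA reads start at the poly(A) tail, and a molecule that is broken or read only in part loses its 5' end.

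In B cells, CD74 is the invariant chain, the chaperone that guides MHC class II molecules to the compartment where peptides are loaded. Its longer form carries an additional exon that encodes a thyroglobulin-type domain. IGHM encodes the constant region of the immunoglobulin mu heavy chain, which is secreted or, with the membrane exons, anchored as part of the B cell receptor. For each of these 2 genes, a coding exon that only 1 of its 2 most-read known models holds is shown. These are protein-coding choices that reads in the known models of the line's own markers resolve. Known models held a mean of 61.7% of CD74 reads and 26.4% of IGHM reads over the 3 libraries. The last exon of IGHM-202, number 6, is not printed in full. Capitals mark the exon, and the lower-case bases are its coding neighbours in the transcript, 5' to 3', from GENCODE release 29 on GRCh38. The CD74 exon, number 7 of CD74-201, lies at chr5:150403121-150403312 on the minus strand, spans 192 bases and keeps the reading frame. The IGHM exon, number 5 of IGHM-202, lies at chr14:105852148-105852263 on the minus strand and spans 116 bases.
CD74 exon 7: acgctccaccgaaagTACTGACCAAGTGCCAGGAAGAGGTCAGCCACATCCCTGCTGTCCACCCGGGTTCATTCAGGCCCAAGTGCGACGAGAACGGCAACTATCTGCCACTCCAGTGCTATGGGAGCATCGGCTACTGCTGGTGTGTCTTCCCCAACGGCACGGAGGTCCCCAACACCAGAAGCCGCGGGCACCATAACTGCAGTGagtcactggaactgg
IGHM exon 5: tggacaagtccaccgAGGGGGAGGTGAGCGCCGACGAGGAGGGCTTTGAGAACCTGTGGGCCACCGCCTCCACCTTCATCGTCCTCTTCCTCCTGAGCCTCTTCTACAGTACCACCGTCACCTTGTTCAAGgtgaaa

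Among reads of the 2 most-read known CD74 models, most came from the form without the thyroglobulin-type exon. CD74-202, which lacks it, had 494, 591 and 199 reads in replicates 1, 2 and 3. CD74-201, which holds it, had 14, 20 and 6. The longer form made up 2.76%, 3.27% and 2.93% of the reads of both models, with exact 95% binomial intervals of 1.51 to 4.58%, 2.01 to 5.01% and 1.08 to 6.26%. The 3 libraries therefore overlapped, at 2.99% ± 0.264 (SD, n = 3 libraries, as for every mean below). Secreted-type IGHM-201 had 97, 110 and 59 reads, and membrane-type IGHM-202 had 11, 11 and 6. The membrane type was 10.2%, 9.09% and 9.23% of the reads of both models, or 9.50% ± 0.596. The exact intervals, 5.20 to 17.5%, 4.63 to 15.7% and 3.46 to 19%, again overlapped. Intervals cover counting error only. Reads placed in incomplete or unannotated models of the genes are not in these shares, because the table does not give their exons.

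The label was checked against markers of 10 cell types. All 10 B-lymphoblastoid markers had reads in every library, with a summed level of 11218 to 11704 counts per 1000000 reads of annotated genes (CPM). CD74 was at 5352 ± 346 CPM, IGHM at 2949 ± 219, HLA-DRA at 2027 ± 272, and CD79A, a signalling chain of the B cell receptor, at 405 ± 27.6. PAX5, the transcription factor that sets B cell identity, was lowest with 5, 3 and 2 reads. All 6 erythroid and all 4 epithelial markers were at 0 reads. Of 6 hepatocyte markers only SERPINA1 was read, with 4 reads in replicate 2. Of 9 T cell markers, TRAC (40, 49 and 15 reads) and TRBC2 (13, 11 and 5) were read in every library, while CD3D, CD3E, CD3G, CD2, CD7, TRBC1 and CD8A were at 0. PLEK, on the platelet list, was at 352 ± 69.2 CPM with the other 4 platelet markers at 0. All 5 plasma cell markers had reads, 3 of them in every library, with a sum of 307 ± 29.5 CPM, and TNFRSF17, a receptor of late B cells and plasma cells, was highest at 169 ± 34.0. Of the natural killer, myeloid and fibroblast markers, NKG7, CSF1R, ITGAM, S100A9 and COL1A1 had 1 or 2 reads in a library and none was read in all 3. A count of 0 allows up to 3 reads, which is 17.2 to 43.1 CPM at these depths.

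The most abundant RNAs were those of the cytoskeleton and of the ribosome, with CD74 the only B-lymphoblastoid marker among the first 25. ACTB, cytoplasmic beta-actin, had 16493, 14955 and 16472 CPM. TMSB4X, which sequesters actin monomers, had 13662, 14548 and 14892. EEF1A1, the elongation factor that brings aminoacyl-tRNA to the ribosome, had 8540, 9166 and 8573, and the glycolytic enzyme GAPDH had 7687, 6649 and 8430. ACTB and TMSB4X did not overlap in level across libraries, and both stood above every other gene in each library. CD74 was eighth, with 5269, 5732 and 5055 CPM, and its range overlapped those of RPS18, RPS19 and RPLP2 beside it. Of the 25 genes, 18 were ribosomal proteins, as were 62 of the first 100. The SD was under 10% of the mean in 22 of the 25. The 10 most abundant genes took 7.92 to 8.02% of the reads and the first 100 took 33.2 to 34.9%. A total of 148 genes were at 1000 CPM or more and held 40.4% of the reads. CPM here is per read and not per base, since a direct RNA read is counted once at any length.

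**Figure D1:**
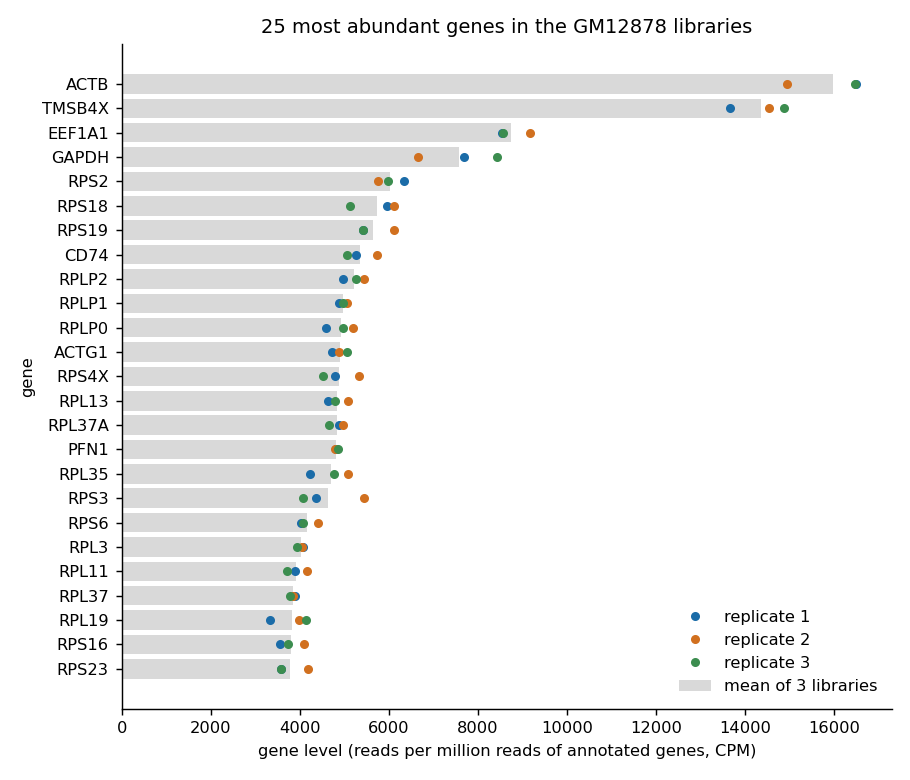
Level of the 25 most abundant genes, in counts per 1000000 reads of annotated genes on the x axis. Grey bars are means of 3 libraries and points are the libraries; ACTB and TMSB4X lie above the other genes, and CD74 is eighth.

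The gene lists show how much of the library each part of the cell took. The 84 ribosomal proteins were all read and summed to 21.7% ± 0.947 of annotated-gene reads. The 20 genes of the actin cytoskeleton summed to 5.63% ± 0.125, and 17 translation factors to 2.74% ± 0.0972. The 40 nuclear-encoded respiratory chain genes, all read, summed to 2.49% ± 0.145, against 0.515% ± 0.133 for the 11 mitochondrially encoded mRNAs read of 13 on the list. Glycolysis summed to 1.93% ± 0.0664. MHC class II with CD74 took 1.20% ± 0.0428, and MHC class I with antigen processing took 1.07% ± 0.0188. Of 15 immunoglobulin constant and J chain genes, 6 were read, at 0.519% ± 0.0199. IGLC2, a lambda light chain constant gene, was at 2055 ± 78.1 CPM and JCHAIN, which joins secreted IgM, at 104 ± 40.6. IGHD had 15, 14 and 4 reads, and IGHG3 and IGHA1 had 1 read each. IGHG1 and IGHE were at 0 reads, and the 7 remaining genes of the list, IGKC among them, were not analysed here. B cell receptor and identity genes took 0.282% ± 0.0341, chemokines and NF-kB targets 0.334% ± 0.0292, and interferon-stimulated genes 0.212% ± 0.00945.

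Known models held fewer than 50% of the reads of each library. Their share was 44.3%, 45.6% and 44.4% in replicates 1, 2 and 3, or 44.8% ± 0.736. ISM models held 18.1% ± 0.227 and NIC models 17.2% ± 0.524. NNC models held 7.84%, 7.997% and 9.80%, so replicate 3 was highest. Genomic models held 12.2%, 10.2% and 9.86%, so replicate 1 was highest. The exact 95% intervals of these outlying libraries, 9.58 to 10.02% for NNC and 12.05 to 12.4% for Genomic, did not reach those of the others. Antisense models held 0.471% ± 0.0227 and intergenic models 0.150% ± 0.0337. Of ISM reads, 80.2% ± 0.868 were suffix matches, which keep the 3' introns, and 4.61% ± 0.632 were prefix matches, which keep the 5' introns. Single-exon models held 97.6% ± 0.408 of Genomic reads.

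Few models recurred, and those that did held most of the reads. Of the 93896 models, 70062 (74.6%) were read in 1 library, 14495 in 2 and 9339 (9.95%) in all 3. The recurring models held 68.8% of the reads. The number read in every remaining library was 18300 without replicate 3, 12302 without replicate 1 and 11910 without replicate 2. Of known models with a read, 3156 (28.9%) recurred, against 2271 (9.10%) of ISM, 1493 (6.52%) of NIC, 717 (3.64%) of NNC and 1665 (11.5%) of Genomic models. Thus 6183 recurring models were not annotated as such. A model with 1 read over the 3 libraries cannot recur. Such models were 40.1% of known, 66.2% of ISM, 74.9% of NIC, 86.9% of NNC and 58.6% of Genomic models. Recurrence at like read number was not compared between classes. Recurring known models held 91.1% of known reads, and recurring NNC models 32.8% of NNC reads. Of the 9339, 8540 (91.4%) also had a read in HepG2 or K562, and 799 did not. The same share over all 93896 models, or over models of like read number, was not determined here. At gene level, 12086 annotated genes had a read and 6608 had one in every library.

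**Figure D2:**
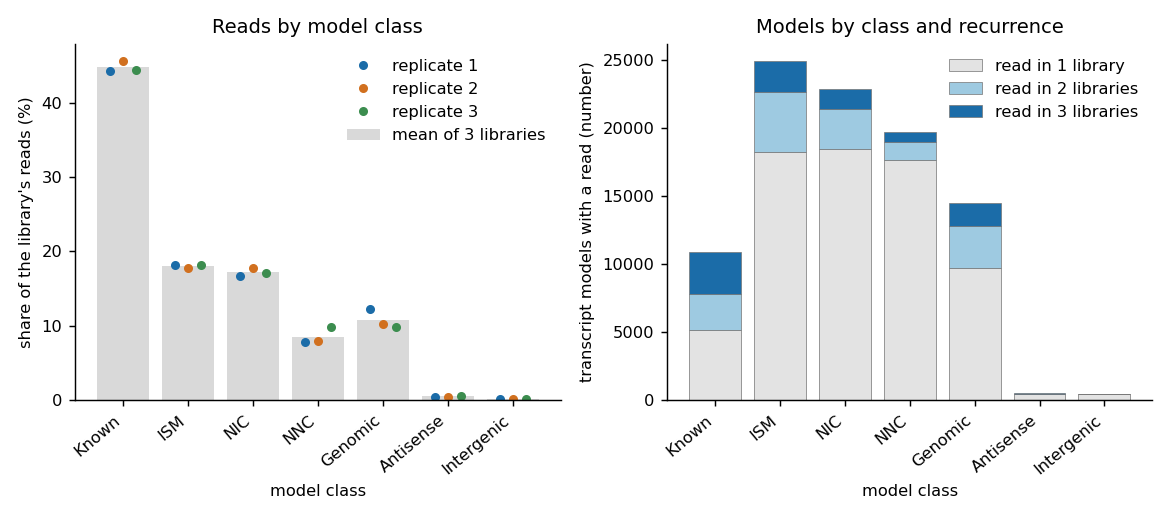
Left, share of each library's reads by model class, with grey bars for the mean and points for the libraries. Right, number of models with a read, divided by the number of libraries they were read in. Known models recur in 28.9% of cases and NNC models in 3.64%, while 40.1% and 86.9% had 1 read in all and could not recur.

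Of the 20 highest recurring ISM, NIC, NNC and Genomic models, 5 of each class, 12 belonged to ribosomal protein genes, which also make up 62 of the 100 most abundant genes. A 6-exon NIC model of RPS2, of 1116 bases, had 762, 793 and 322 reads. NIC models of RPS15A (370, 428 and 173), RPL37 (370, 454 and 155) and RPL26 (327, 403 and 134) were also among the highest. The leading NNC models were those of RPS20, with 164, 207 and 72 reads, RPLP2, RPL23A, BTF3 and RPL37. Among suffix ISM models, one of ACTB with 3 exons had 347, 286 and 112 reads, and those of RPS14 and RPL34 each lacked the 5' part of the chain. Among Genomic models, a 2-exon model of the histone gene HIST1H2BK had 202, 252 and 102 reads. The single-exon models of EEF1A1P5 and RPL6P27, pseudogenes of EEF1A1 and RPL6, are uncertain, because reads of the parent gene can be placed in a near-identical copy. All 20 of the highest recurring ISM, NIC, NNC and Genomic models had reads in both HepG2 and K562 too. Of all recurring models of these classes, 82.4 to 87.4% by class had a read in HepG2 and 78.9 to 84.8% in K562.

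The leading model of a gene, the one with most reads after libraries were scaled to equal totals, was taken in the 1205 annotated genes that had 10 or more reads in each library. It was the same in all 3 libraries, with a tie for the lead counted as not the same, in 785 genes (65.1%). That share rose with the reads of the gene, from 55.7% of 636 genes with 10 to 19 reads in the shallowest library to 88.5% of 113 genes with 100 or more. The leader was a known model in 876 genes (72.7%), Genomic in 119, ISM in 97, NIC in 81 and NNC in 32. The leader held a median of 42.0% of its gene's reads (quartiles 26.4 and 61.3%). The median was 42.9%, 42.2% and 41.7% in the 3 libraries. The leader held 50% or more in every library in 365 genes, 90% or more in 62 and under 20% in 78. Known leaders held a median of 48.4% and ISM leaders 18.9%. A known leader was the same in every library in 74.1% of cases, and an ISM leader in 22.7%. A gene had a median of 21 models.

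**Figure D3:**
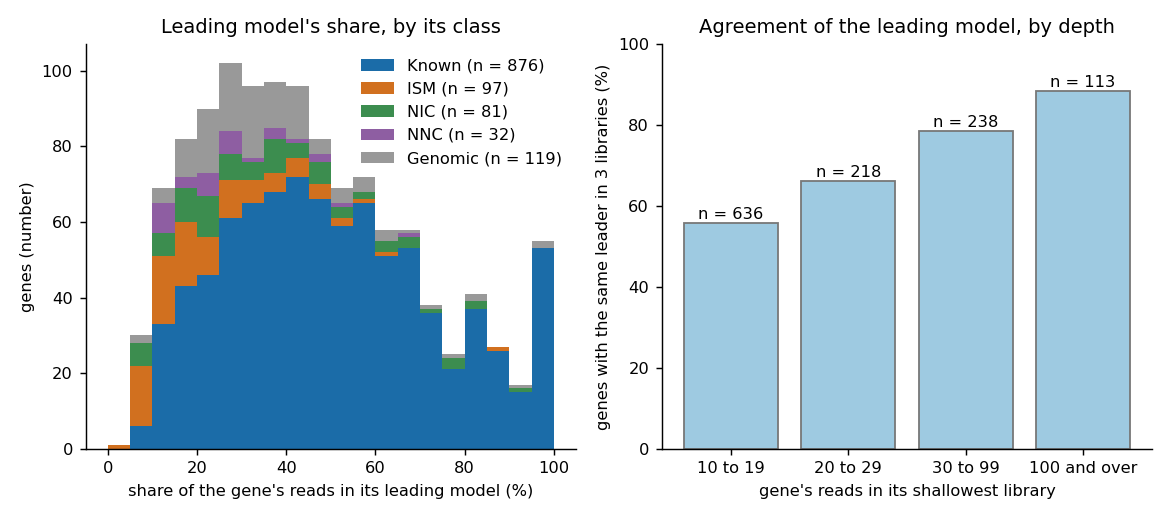
Left, number of genes by the share of reads in the leading model, coloured by the class of that model (1205 genes). Right, percent of genes with the same leader in all 3 libraries, by the gene's reads in its shallowest library. It rises from 55.7% to 88.5%, with ties counted as not the same.

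Of the 25 most abundant genes, 20 were led by a known model and 5 by a NIC model. ACTB-201 held 43.4%, 43.7% and 44.6% of ACTB reads, and a further 30.7% ± 2.80 were ISM. TMSB4X-204 held 78.8%, 77.0% and 77.0%. PFN1-201, of profilin, which loads actin monomers onto filaments, held 82.4%, 78.7% and 80.5%, the highest share among the 25. RPS6-204 held the lowest, 18.5%, 15.3% and 17.6%, among 139 models. EEF1A1-201 held 34.6%, 33.5% and 28.0%. Over the 25 genes, the leader's share ranged by 0.824 to 14.7 points between libraries, with a median of 5.37. The range was at least 10 points in RPS18, described below, and in RPS16, where RPS16-201 held 63.9%, 61.3% and 49.2%. COX8A, a small cytochrome c oxidase subunit, was close to a single model, with 99.4%, 100% and 96.9% in COX8A-201. ISG15-201, of the ubiquitin-like protein induced by interferon, held 93.8%, 93.2% and 94.7%.

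The markers of the line differed in how concentrated their reads were. CD74 reads fell on 149 models, 26 of them in every library. CD74-202 held 62.5%, 59.1% and 56.5%. A 7-exon suffix ISM model held 6.19%, 6.10% and 6.25%, and an 8-exon NIC model held 2.15%, 2.70% and 5.40%, with replicate 3 highest. IGHM had 187 models, the most of the 1205 genes, and 17 of them were in every library. IGHM-201 held 22.9%, 22.4% and 26.5%. A 2-exon ISM model held 20.99%, 19.7% and 16.6%, and a 3-exon NIC model held 12.5%, 19.3% and 17.9%. By class, IGHM reads were 26.4% ± 2.42 known, 39.1% ± 4.804 ISM, 26.3% ± 4.51 NIC and 8.16% ± 2.54 NNC. The known IGHM models are annotated as constant region segments, so a read that also holds variable region exons would not be called known. How many reads hold such exons was not determined. In CD79A, with 56, 74 and 29 reads, CD79A-201 held 44.6%, 44.6% and 48.3%, and a 4-exon suffix ISM model held 21.4%, 33.8% and 17.2%. CD79A-202 had 4, 3 and 3 reads.

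Several other antigen presentation genes were led by models outside the annotation. HLA-DRA-202 held 59.6%, 64.9% and 58.3% of HLA-DRA reads. HLA-DRB1 was led by an NNC model with 25.3%, 27.5% and 26.4%. HLA-B was led by a 7-exon NIC model with 24.7%, 27.0% and 19.2%. HLA genes are highly polymorphic and resemble each other, so the placing of their reads is uncertain. B2M, the light chain of MHC class I, was led by B2M-204 with 62.8%, 59.1% and 54.2%. Of the 11 MHC class I and processing genes with enough reads, 6 were led by a known model, and of the 8 MHC class II genes, 5, beside 72.7% of all 1205 genes. Light chain gene IGLC2 was led by a 3-exon ISM model with 34.6%, 27.8% and 34.2%. It too is annotated as a constant region segment, so a read that also holds variable region exons would not be called known. MS4A1, the B cell surface protein CD20, was led by a single-exon Genomic model of 1167 bases with 36.2%, 35.5% and 42.9%, and Genomic models together held 78.4% of its reads.

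Unannotated leading models were also found among abundant genes. Of 351 genes that had 30 or more reads in each library, 73 encoded ribosomal proteins. A model that is not known led in 76, and 21 of these were ribosomal proteins. A NIC model led in 33, of which 17 were ribosomal proteins. In 14 of the 17 the leading NIC model had 1 exon fewer than the most-read known model, in 2 the same number and in 1 more. RPS2 had 80.0%, 78.8% and 77.4% of its reads in its 6-exon NIC model, and the most-read known model, RPS2-213, had 2, 1 and 0 reads. RPL37 had 63.4%, 67.8% and 58.7% in a 3-exon NIC model, and RPL19 had 46.2%, 47.1% and 47.6% in a 5-exon one. RPS4X and RPS19 were led by NIC models with 39.0% ± 0.728 and 35.6% ± 3.07. RPL23 had 39.0%, 43.0% and 45.4% in a NIC model and 45.4%, 42.3% and 40.4% in RPL23-206, so the order of the 2 models changed between libraries. RPS14 was led by an ISM model with 49.5%, 54.7% and 62.7%. The table gives no coordinates for unannotated models, and which exon is missing was not determined here.

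By list, the share of genes led by a known model can be read against 72.7% of all 1205 genes, with no test of a difference. Of the 79 ribosomal proteins with at least 10 reads, 57 (72.2%) were led by a known model, 17 by NIC, 4 by ISM and 1 by NNC. Of 39 respiratory chain genes, 37 were led by a known model, as were all 18 proteasome genes with that many reads and 16 of 19 actin cytoskeleton genes. Known models led 14 of 19 chaperones (73.7%) and 11 of 20 splicing factors and hnRNP proteins. The median share of the leader was 55.4% in the respiratory chain, 51.8% in ribosomal proteins, 33.1% in splicing factors and 25.2% in chaperones, beside 42.0% over all 1205 genes. HSP90AB1, a cytosolic heat shock protein, had 76.0% of its reads in ISM models, and PTMA, prothymosin alpha, had 59.0%. TUBB, a beta-tubulin, was led by TUBB-205 with 48.5%, 48.0% and 45.2%, and 34.2% of its reads were Genomic. PKM, the last enzyme of glycolysis, was led by an NNC model with 14.8%, 14.8% and 19%, and 58.9% of its reads were NIC.

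Among the 351 genes that had 30 or more reads in each library, 6 had the lowest leading shares. XRCC5, the larger subunit of the Ku DNA repair complex, had 5, 5 and 4 reads in its leading model of 92, 85 and 39. SSRP1, a histone chaperone subunit, was at 5%, 7.25% and 9.68%, and EIF3B, a scaffold of translation initiation factor 3, at 7.14%, 8.96% and 6.45%. TRIM28, a corepressor of transposable elements, had 119 models. FLNA, which crosslinks actin, and HNRNPC, which binds nascent RNA, were led at 8.99% ± 1.45 and 9.67% ± 6.09. Whether the leader of these genes differs from the models next to it was not tested.

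A pair of annotated isoforms was read side by side in a small set of genes. Of 803 genes with 2 known models read, 45 had a second known model with at least 20% of the gene's reads in every library, 30 of them with at least 30 reads. In 36 of the 45 (80.0%) the chain of one model was the 3' part of the chain of the other, against 397 of all 803 (49.4%). In 6 genes, ALDOA, CTSC, C12orf57, APEX1, HIST1H2BJ and VKORC1, the models held different introns. Of the 12 most abundant, 10 were ribosomal proteins and 11 were nested at the 3' end. Each of these 11 differed by the first intron of the longer model, where longer means more introns and not more bases. In 6 of the 11 the exon upstream of that intron holds the annotated start codon. The junctions of 4 such pairs are shown because a read must cross them to be assigned to the longer model. Capitals mark the last 15 bases of exon 1 and lower case the first 15 of exon 2, 5' to 3' in the transcript, from GENCODE release 29. The introns on GRCh38 are chr6:33272123-33272627 (plus strand) for RPS18, chr9:124861556-124861909 (minus) for RPL35, chr2:216498878-216499269 (plus) for RPL37A and chr12:6534570-6534809 (plus) for GAPDH. In RPS18, RPL35 and RPL37A the capitals end in the start codon, and in GAPDH exon 1 is noncoding.
RPS18-230, absent from RPS18-236: TGTGCTGCAGCCATGtctctagtgatccct
RPL35-201, absent from RPL35-203: GCTTGTGCAGCAATGgccaagatcaaggct
RPL37A-210, absent from RPL37A-201: GGTCGCGGCGACATGgccaaacgtaccaag
GAPDH-201, absent from GAPDH-204: CTTTTGCGTCGCCAGccgagccacatcgct

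In RPL35 the 4-exon coding RPL35-201 held 59.6%, 55.0% and 50.6%, and the 3-exon RPL35-203, annotated as retaining an intron, held 37.1%, 40.4% and 45.8%. The model with more introns, RPL35-201, was ahead in every library, though it has 455 bases and RPL35-203 has 785. In RPL37A the order was the other way, with 56.8%, 56.4% and 51.4% in the shorter RPL37A-201 and 28.8%, 27.7% and 27.7% in the coding RPL37A-210. In GAPDH, GAPDH-201 held 41.4%, 37.6% and 37.3% and GAPDH-204, also coding, held 20.2%, 22.2% and 24.5%. RPL32-204 and RPL32-202 were within 5 points of each other in every library, at 42.9% ± 1.98 and 40.6% ± 2.27. RPLP2-201 and RPLP2-207 were close too, at 28.1% ± 1.40 and 26.5% ± 1.48. In ACTG1, cytoplasmic gamma-actin, ACTG1-206 led in replicate 1 (28.7 against 20.8%) and ACTG1-210 in replicates 2 and 3 (21.2 against 22.5% and 22.7 against 24.4%). Of the 11 nested pairs the model with fewer introns led in 5 and the one with more in 6. RPL11 was the exception, with a second model nested at the 5' end. Reads of the model with fewer introns and reads of its partner that lost their 5' end were not told apart here.

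**Figure D4:**
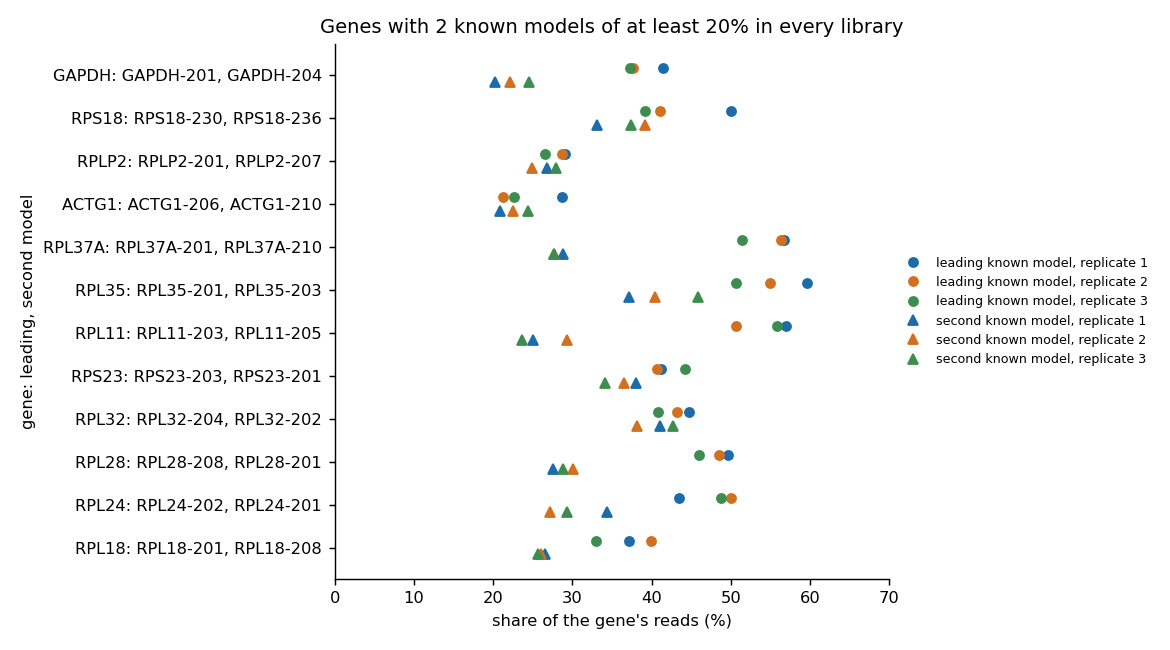
Share of the gene's reads in the leading (circles) and second (triangles) known model of the 12 most abundant genes with 2 such models, coloured by library. The 2 models of ACTG1, RPLP2 and RPL32 overlap or change order between libraries, and those of RPL37A and RPL11 stay apart.

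The leading model's share was compared between the 3 libraries by an exact conditional test of homogeneity (Freeman-Halton, two-sided, Benjamini-Hochberg over all genes), which compares libraries and not conditions. Of 1179 genes with more than 1 model, 2 were called at an adjusted p under 0.05 and a range of at least 10 points, 0.17% of those tested. At an unadjusted p under 0.05 there were 97 (8.23%). FAM172A, with no read in a known model, was led by a single-exon Genomic model with 40 of 48, 52 of 82 and 43 of 45 reads. Its shares were 83.3%, 63.4% and 95.6%, with replicate 2 lowest, and the adjusted p of the exact test was 0.0294. RPS18-230 held 50.1%, 41.1% and 39.1% of RPS18 reads, with replicate 1 highest, and its nested partner RPS18-236 held 33.1%, 39.2% and 37.4%. The adjusted p of the exact test for RPS18 was 0.0294. Without replicate 1, FAM172A and HSPA8 were called of 1206 genes tested. None of 1185 genes without replicate 2 and of 2246 without replicate 3 was called. Of these, 64 and 81 had an unadjusted p under 0.05 in the same exact test. The median range of the share over the 3 libraries was 12.2 points, and 7.19 in the 343 tested genes with at least 30 reads.

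Known models held a smaller share of reads in genes whose most-read known model was longer. Genes were binned by the annotated length of that model, which is not always the length of the RNAs read. RPL37, led by a NIC model of 348 bases, was binned by RPL37-201, of 7686 bases. Known shares were 68.4%, 68.0% and 67.2% in 321 genes under 1000 bases. They were 50.1%, 49.1% and 48.1% in 438 genes of 1000 up to but not including 2000 bases, 41.7%, 42.4% and 37.8% in 231 of 2000 up to 3000, and 32.0%, 33.8% and 31.7% in 184 of 3000 and over. The bins did not overlap in any library. With 3 libraries a paired exact test cannot go below p = 0.25, so none was run. Suffix ISM reads, which lack 5' introns of the annotated chain, went from 7.91% ± 0.106 in the shortest bin through 14.8% ± 0.128 and 19.1% ± 0.603 to 21.02% ± 0.362. Whether these reads lost their 5' end was not tested. Genomic reads went from 1.19% ± 0.0781 through 4.42% ± 0.155 and 8.04% ± 0.680 to 12.7% ± 0.821. NIC reads differed less, at 15.6% ± 0.329 in the shortest bin and 20.5 to 21.2% in the others. The leader was a known model in 84.1%, 81.1%, 61.9% and 58.7% of the genes of the 4 bins. The same leader was found in every library in 84.1%, 70.5%, 47.2% and 45.1%. Depth differed between the bins too. The 321 genes of the shortest bin had 18803 to 47516 reads in a library, and the 184 of the longest had 4315 to 10372. Agreement of the leader also rose with the reads of a gene, and length and depth were not separated here. Across 1174 genes, Spearman's rho of length and known share was -0.473 to -0.459 in the 3 libraries, a description over genes that share the libraries and are not replicates.

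**Figure D5:**
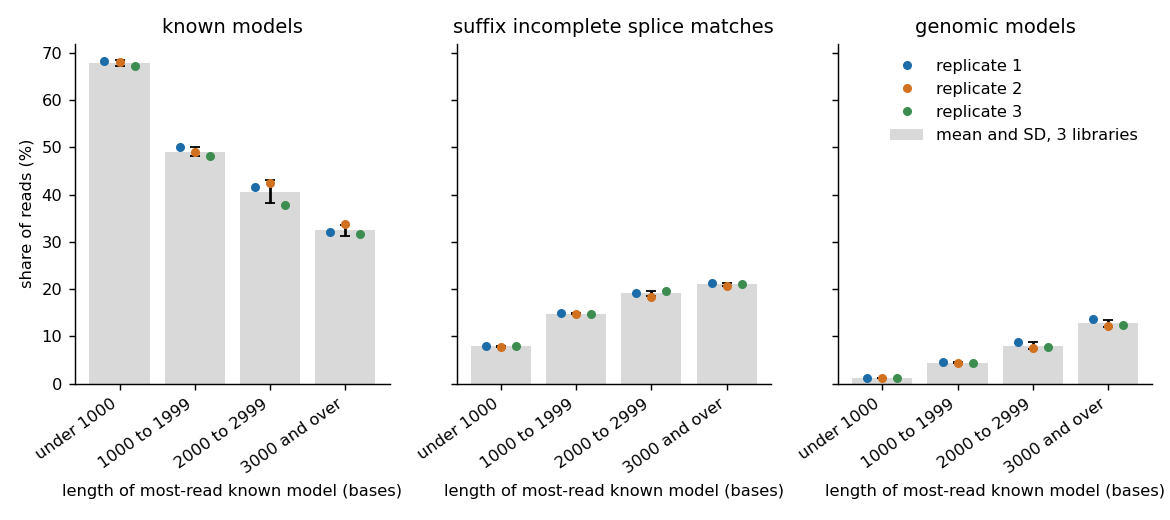
Share of reads in known models, suffix ISM models and Genomic models, by the annotated length in bases of the gene's most-read known model. Bars and whiskers are mean and SD of 3 libraries and points are the libraries; the known share falls from 67.9% to 32.5% while the suffix ISM share rises from 7.91% to 21.02%.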

How the data were processed

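Direct RNA reads of 3 GM12878 libraries were used. Per the labels, the deposited table is a TALON abundance table of read counts to each transcript model, not normalized by the authors. The submitters' processing notes name the aligner minimap2 and the build hg38, and the versions of minimap2 and TALON are not given in the sources used here. The table's exon numbers and lengths were used as deposited. All 35496 known models and 20565 annotated genes matched GENCODE release 29.

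Libraries held 70374 to 176118 reads, of which 0.945 to 1.05% lay outside annotated genes. Chi-square over genes per degree of freedom was 1.23 to 1.39 between libraries, with chi-square test p of 3.6e-49 to 6.9e-20. Libraries thus differed by more than counting error, and each was counted. This does not show that they are separate cultures. The exact test and the binomial intervals allow for counting error only. Counts were summed by annotated gene and divided by the reads of annotated genes (CPM). 1 read was worth 5.73 to 14.4 CPM. The floor was 3 reads. Shares of a class are of all reads of the library.

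The exact test was run in Python 3.11.15 (scipy 1.17.1) and checked on simulated data. edgeR 4.0.16 and DESeq2 1.42.0 gave scaling factors as alternatives, with no test. The members and lists were chosen with earlier results of these data known. Genes were named by rule: the 25 most abundant, the 3 most abundant of each list, and the models of CD74, IGHM and CD79A. Among genes that had 30 or more reads in each library, the 8 most abundant led by an unannotated model were named. The 12 most abundant with a second known model of 20% or more, and the 6 of lowest leading share, came from that same set. Without that filter, the 5 highest recurring models of each class other than known and the called genes were taken. COX8A was chosen after its values were seen, as were the 6 genes with different introns and the 4 junctions printed. Coding exons were shown where both known models had at least 10 reads. Length bins used the most-read known model. Alternatives were other filters, thinning to 70374 reads, other scalings, known models only and leaving out each library. The table lists no known model under 300 bases, and shorter RNAs were not analysed here. Some items that the rule names are not reported here.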

Additional observations from a re-analysis of the deposited data

How the results depend on the processing

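Class shares moved by more than 1 SD in these cases: leaving out the 10 most abundant genes gave 43.7% known and 18.3% ISM, and equal weight per gene gave 46.2% known, 19.7% ISM, 15.95% NIC and 8.72% Genomic. Requiring 2 reads gave 4338 models in every library and thinning gave 5896. Leaving out a library gave 11910 to 18300 models. Annotated genes in every library stayed within 1.5 times of 6608 under each alternative run.

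The same leader was found in 48.0% of 2361 genes with at least 5 reads and in 81.8% of 351 with at least 30. With known models only it was 94.3% of 527 genes, each with 10 or more known reads in each library. After thinning it was 64.6% of 899 genes (added after seeing the data). Without 1 library it was 66.4 to 71.0% of 1211 to 2283 genes, where only 2 libraries had to agree. The known leader and median share below used these same sets of genes, except that pooling ISM models used the 1205. A known leader was found in 64.2% and 78.3% with at least 5 and 30 reads, in 59.5% when ISM models were pooled, and in 63.3 to 70.4% without 1 library. The median leading share was 36.2%, 50.2% and 94.6% with at least 5 reads, at least 30 reads and known models only, and 37.9 to 41.9% without 1 library. Genes whose leading share differed between libraries numbered 4 of 643 tested by chi-square and 4 of 343 with at least 30 reads (FAM172A, HSPA8, RPS16 and RPS18 in both). The exact test called 0 of 388 with known models only, where 26 genes had an unadjusted p under 0.05. It called 0 to 2 of 1185 to 2246 genes without 1 library. Among known and ISM reads only, the known share by length was 87.9%, 72.7%, 63.5% and 55.9%. A second known model of at least 10% and 30% was found in 113 and 13 genes (66.4% and 92.3% nested at the 3' end), thresholds added after seeing the data, and 51 to 53 genes passed 20% without 1 library. Of 92 gene levels, TMM and DESeq2 size factors kept 92 within 1 SD, while counting known models only moved 82, 56 of them by over 1.5 times. No paired analysis was possible because no result compares groups of samples. Depth limits the models of genes with few reads most.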

Other observations

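Several mitochondrially encoded RNAs differed widely in level between the GM12878 libraries. MT-RNR2, the large mitochondrial ribosomal RNA, had 506, 424 and 30 reads in replicates 1, 2 and 3, or 3371, 2430 and 431 CPM. MT-RNR1, the small one, had 321, 200 and 11 reads, or 2138, 1146 and 158 CPM. Both were lowest in replicate 3. MT-CO3, a cytochrome c oxidase subunit, went the other way, with 257, 292 and 309 reads, or 1712, 1674 and 4437 CPM, and MT-CO3-201 held 95.7%, 98.3% and 99.7% of them. Without replicate 3 the mean of MT-CO3 was 1693 CPM in place of 2608. MT-CO1 varied less, at 779, 631 and 862 CPM, with 46.9% of its reads in Genomic models. The summed level of mitochondrially encoded mRNAs was 4896, 3972 and 6592 CPM. The cause was not tested.

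A single unannotated antisense model of 1 exon and 606 bases had 314, 423 and 177 reads, which is 45.4%, 52.1% and 50.6% of all antisense-class reads, or 49.4% ± 3.49 (SD, n = 3). The next had 49, 48 and 31 reads. FP671120.1, a long noncoding RNA gene by annotation, had 86, 92 and 93 reads, all in Genomic models. Replicate 3 held 69635 annotated-gene reads, against 150123 and 174454 in replicates 1 and 2, so the level of FP671120.1 was highest in replicate 3. Its mean over the 3 libraries was 812 CPM. Among noncoding RNAs with poly(A) tails, ZFAS1 was at 360 ± 6.93 CPM, SNHG5 at 314 ± 47.2 and SNHG6 at 211 ± 40.2. SNHG6-203 held 68.0%, 61.5% and 58.8% of its gene's reads, while ZFAS1-205 held 30.2%, 31.2% and 12%. The chemokine genes CCL3 and CCL4 were at 926 ± 170 and 314 ± 69.97 CPM, led by CCL3-204 with 80.4%, 88.5% and 81.7% and by CCL4-202 with 70.2%, 80.6% and 76.5%.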
